A study of Homo sapiens with 24 samples.

Results

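A549 cells that carry the scrambled control shRNA (δscr) were compared with control cells of the 3 other non-small cell lung cancer lines of the study, H2009, H441 and H460. The members are the 3 A549 control arrays, of 12 control arrays and 24 arrays in the whole series, and they were chosen by the cell line and the shRNA that the sample labels give, with no measured value in the rule. The 4 groups compared were A549 δscr, H2009 δscr, H441 δscr and H460 δscr, with 3 arrays each. All 4 lines carry mutant K-ras, were infected with a lentiviral shRNA vector and were kept under puromycin as stable lines, so infection, vector and drug are common to the cells on both sides of each comparison. The study classes A549 and H460 as K-ras independent and H2009 and H441 as K-ras dependent. Each line comes from the tumor of 1 person and each group expresses 1 scrambled shRNA, so the replicates measure the spread of a line in culture and not the spread among tumors. The other 12 arrays hold the same 4 lines with the PKCδ shRNA δ193, which lowers PRKCD.

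A549 is a lung adenocarcinoma line that is widely used as a model of the alveolar type II cell, the cell that makes surfactant. Besides mutant K-ras it is known to carry inactivating changes in KEAP1, STK11 and SMARCA4 and a homozygous deletion at CDKN2A. KEAP1 normally holds the transcription factor NRF2 at a low level, and NRF2 drives genes that detoxify electrophiles. SMARCA4 is the ATPase of a chromatin remodeling complex. A line can thus differ from another through the cell it came from, through its mutations and through its history in culture, and an array comparison of lines does not separate these.

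Array values are RMA values on a log2 scale, in which a difference of 1 is a 2-fold difference, and 18417 genes were tested. A gene was called between A549 and another line when the adjusted p was under 0.05 by limma and the fold was at least 2. No background level was measured on these arrays, so a value near 3 or 4 marks the lower end of the scale and not a known amount of RNA, and a level is compared between lines within a gene, never between genes. The medians of the control arrays lay between 5.72 and 5.77. Arrays of 1 group correlated at 0.9918 to 0.9977 over all genes. Between A549 and the other lines the median correlation was 0.9346 with H2009, 0.9232 with H441 and 0.9432 with H460, while it was 0.9353 between H2009 and H441, 0.9567 between H2009 and H460 and 0.9625 between H441 and H460.

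The labels were checked against genes that define the lines. PRKCD, the target of δ193, had 6.70, 7.03 and 7.19 on the A549 arrays, against 8.20, 8.21 and 8.11 in H2009, 8.11, 7.71 and 7.76 in H441 and 8.27, 8.34 and 8.35 in H460. PRKCD was lower in A549 than in each other line, by 0.89 against H441, the closest, with an adjusted p of 3.2e-05, which is under 2-fold and was therefore not called. In cells with δ193 it was 5.61, 5.82 and 5.71 on the A549 arrays, 5.96, 5.95 and 5.86 in H2009, 5.69, 4.68 and 6.01 in H441 and 6.42, 6.28 and 6.16 in H460, below every δscr array of the same line. SMARCA4 had 5.32, 5.24 and 5.35 on the A549 arrays, against 8.14, 8.29 and 8.13 in H2009, 8.14, 7.94 and 8.26 in H441 and 8.33, 8.35 and 8.41 in H460. It was lower in A549 by 2.81 than in the closest line. The epithelial keratin genes KRT7, KRT8 and KRT18 had means of 11.20 ± 0.16, 12.48 ± 0.04 and 12.38 ± 0.06 in A549. SFTPB, which encodes surfactant protein B, had 4.09, 4.28 and 4.30 on the A549 arrays, against 3.66 to 4.06 on the 9 others, and SFTPC and NKX2-1 averaged 4.83 ± 0.14 and 3.88 ± 0.15 in A549. H441 is known as a line that makes surfactant protein B, but on the arrays labelled H441 SFTPB averaged 4.01 ± 0.06 and NKX2-1, the lung lineage factor, 4.21 ± 0.17. Both genes thus lay toward the lower end of the scale on arrays whose label would have them expressed. These arrays correlated more closely with H460 than with the other lines, but so did the A549 and the H2009 arrays. Whether the sex chromosome genes on the arrays labelled H2009 match that line was not tested against a record. The total counts, 6 of the lists and the zinc finger family, the shares of the chromosomes named and the counts on δ193 arrays are therefore also given with H441 or H2009 set aside.

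**Figure D1:**
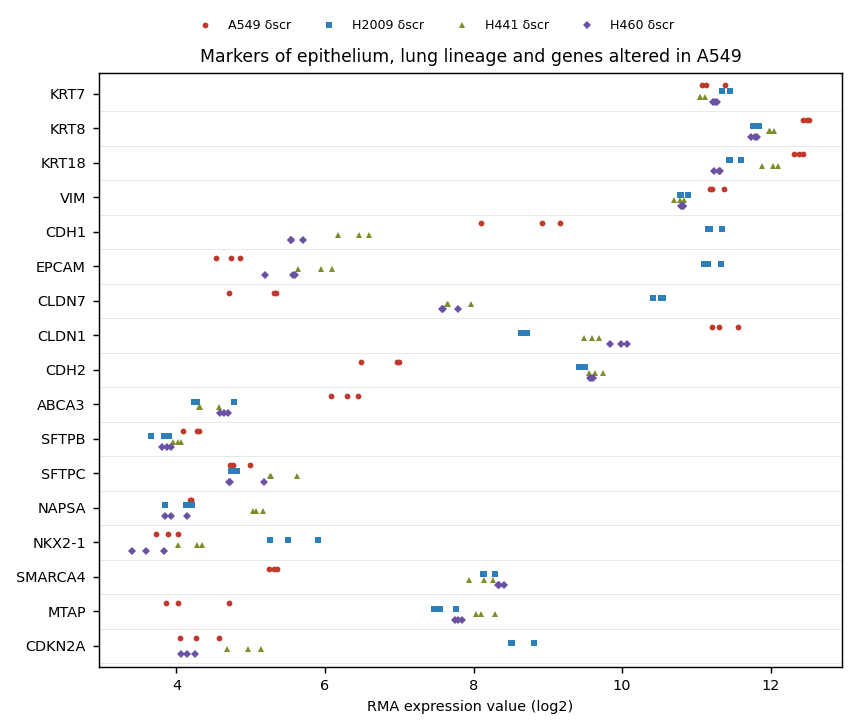
RMA values (log2) of genes that mark epithelium, the alveolar lineage or alleles altered in A549, with 1 point for each of the 3 control arrays of each line. SMARCA4 and MTAP lie lower in A549 than in every other line, and SFTPB averages 4.22 in A549 and 4.01 on the arrays labelled H441.

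A549 differed from every other line at once in 709 genes. A culture was measured as a whole, so fewer cells that express a gene and less RNA per cell cannot be told apart. Against all 3 lines 396 genes were higher in A549 (2.15% of those tested) and 313 were lower (1.7%). Against single lines, 894 genes were higher (4.85%) and 1142 lower (6.2%) than in H2009. Against H441, 1572 were higher (8.54%) and 1166 lower (6.33%). Against H460, 801 were higher (4.35%) and 947 lower (5.14%). Against the mean of the 3 lines, 791 were higher (4.29%) and 790 lower (4.29%). The largest adjusted p among the called genes was 0.00314 for the higher and 0.00344 for the lower ones.

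The size of a gene's separation is given below by the smallest of its 3 differences. Its median was 1.56 over the higher genes and 1.58 in size over the lower genes, and it was at least 3 on the log2 scale for 48 higher and 44 lower genes. Just inside the threshold lay BCL3 at 1.0008 and BTN3A2 at -1.0001, and just outside it lay the microRNA gene MIR21 at 0.9997 and AP2M1 at -0.9996. By the same rule H2009 had 427 genes above and 100 below each other line, H441 had 218 and 423, and H460 had 117 and 26. With the H441 arrays set aside, which can only add genes, 475 genes were higher in A549 than in both remaining lines (2.58%) and 429 were lower (2.33%). With the H2009 arrays set aside 599 were higher (3.25%) and 533 lower (2.89%).

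The 25 genes furthest above the other lines were of many kinds, led by CEACAM6. CEACAM6, an adhesion glycoprotein of the carcinoembryonic antigen family, had 11.69, 11.69 and 11.81 on the A549 arrays, against 3.40, 3.56 and 3.50 in H2009, 3.87, 3.46 and 3.48 in H441 and 3.51, 3.51 and 3.52 in H460. The A549 mean was 279-fold above H441, the closest line, a log2 difference of 8.12 ± 0.10 (SE, adjusted p = 2.15e-15 by limma). NTS, the precursor of the peptide hormone neurotensin, had 11.08, 10.94 and 11.06 on the A549 arrays, against 2.86, 2.74 and 2.76 in H2009, 3.32, 3.48 and 3.37 in H441 and 2.61, 2.83 and 2.82 in H460, which put A549 199-fold above H441. UPK1B, a tetraspanin of the urothelial plaque, had 11.08, 10.77 and 10.86 on the A549 arrays, against 3.16 to 3.61 on the 9 others and was 176-fold higher than in H441. In each of these 3 genes the other lines lay together at the lower end of the scale. The transmembrane 4 L6 family gene TM4SF4 had 8.32, 8.53 and 8.69 on the A549 arrays, against 3.17 to 3.45 on the 9 others, and TM4SF18 of the same family had 9.51, 9.25 and 9.32 on the A549 arrays, against 3.27 to 4.08 on the 9 others. KRT20, an intestinal and urothelial keratin, was higher by 4.28, but its A549 arrays spread, with 7.01, 8.63 and 9.19 against 3.77 to 4.14 on the 9 others, and without replicate 1 the difference was 4.91.

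Enzymes and transporters were among the same 25 genes. GPX2, a glutathione peroxidase of gut epithelium and an NRF2 target, had 11.75, 11.76 and 11.84 on the A549 arrays, against 4.10, 3.97 and 4.01 in H2009, 3.91, 4.13 and 3.96 in H441 and 4.74, 4.62 and 4.96 in H460, which was 129-fold above H460, the closest line. CYP24A1, the mitochondrial hydroxylase that inactivates vitamin D, had 11.79, 11.68 and 11.69 on the A549 arrays, against 4.32 to 5.04 on the 9 others. HPGD, which oxidizes prostaglandins, had 9.14, 8.68 and 8.89 on the A549 arrays, against 2.80 to 3.27 on the 9 others and was 52.5-fold higher than in H2009. SLC2A3, a high-affinity glucose transporter, was higher by 5.08, PDK4, a kinase that inhibits pyruvate dehydrogenase, by 4.35, and HAS2, a hyaluronan synthase, by 4.19. In all 6 of these genes every A549 array lay above every other array. The same held for all 396 genes called higher, so it adds nothing to the call.

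Among secreted factors, the monocyte chemokine CCL2 had 10.11, 9.497 and 9.34 on the A549 arrays, against 3.67 to 4.21 on the 9 others and was 47.5-fold higher than in H2009. CST1, a salivary cystatin, INSL4, an insulin-like peptide of the placenta, EDN1, the precursor of the vasoconstrictor endothelin 1, and the matrilysin gene MMP7 were higher by 4.904, 4.40, 4.01 and 4.13 than in the closest line. The remaining genes of the 25 with the largest separation were the neuronal intermediate filament gene INA (6.66), the death-associated kinase gene DAPK1 (4.93), SLFN11, whose product sensitizes cells to DNA damage (4.82), the adhesion receptor gene ADGRL4 (4.78), the RNA-binding protein gene BICC1 (4.55), DCDC2, a microtubule-binding protein gene (4.04), and the fibrinogen genes FGB and FGA, described below. BICC1 was the most uniform of these, with 9.04, 9.04 and 9.03 on the A549 arrays.

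**Figure D2:**
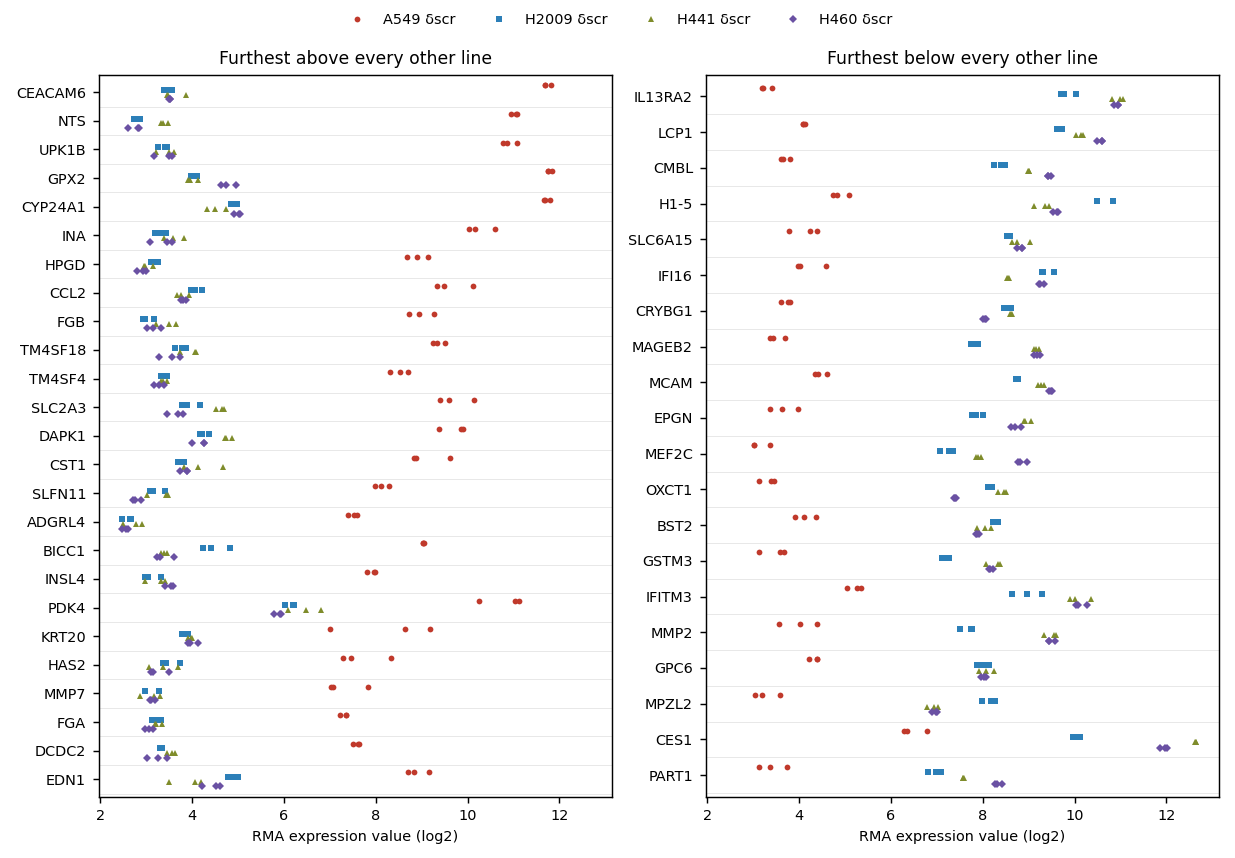
RMA values (log2) of the 25 genes furthest above (left) and the 20 genes furthest below (right) every other line on the control arrays, with 1 point per array and 3 arrays per line. CEACAM6 averages 11.73 in A549 and 3.49 to 3.61 in the other lines, and IL13RA2 averages 3.27 in A549 and 9.84 to 10.96 in the others.

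At the other end, A549 lay at the lower end of the scale for genes that the 3 other lines had in common. IL13RA2, the decoy receptor for interleukin 13, had 3.19, 3.40 and 3.21 on the A549 arrays, against 10.04, 9.77 and 9.70 in H2009, 11.05, 10.996 and 10.82 in H441 and 10.87, 10.94 and 10.94 in H460, 94.9-fold lower than in H2009, the closest line, with an SE of the log2 difference of 0.10 (adjusted p = 1.55e-14 by limma). LCP1, the leukocyte actin-bundling protein L-plastin, had 4.13, 4.09 and 4.09 on the A549 arrays, against 9.72, 9.72 and 9.61 in H2009, 10.19, 10.14 and 10.04 in H441 and 10.49, 10.60 and 10.61 in H460 and was 47.7-fold lower than in H2009. The linker histone gene H1-5 had 5.09, 4.83 and 4.73 on the A549 arrays, against 9.12 to 10.83 on the 9 others, and IFI16, a nuclear sensor of foreign DNA, had 4.58, 4.02 and 3.97 on the A549 arrays, against 8.54 to 9.56 on the 9 others. All 3 A549 arrays lay below every other array in these 4 genes.

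The other lower genes of the 20 with the largest separation are given by what they encode. MCAM, an adhesion molecule of endothelium and melanoma, was lower by 4.30 than in the closest line, EPGN, an EGF receptor ligand, by 4.22, the gelatinase gene MMP2 by 3.69, the glypican gene GPC6 by 3.67, and the epithelial junction gene MPZL2 by 3.64. Enzyme and transporter genes were CMBL, a hydrolase gene (lower by 4.69), SLC6A15, a transporter of neutral amino acids (4.42), OXCT1, which starts the oxidation of ketone bodies (4.07), and the detoxification genes GSTM3 (3.75) and CES1 (3.58). The transcription factor gene MEF2C (4.09), the cancer-testis antigen gene MAGEB2 (4.31), CRYBG1 (4.32) and the noncoding RNA gene PART1 (3.56) complete the 20 genes with the largest separation, together with the interferon-stimulated genes BST2 and IFITM3.

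Gene lists give the same comparison by function. For every list and family called against all 3 lines below, the shares over all genes were 2.15% higher and 1.7% lower. For counts against single lines, they were 4.85% higher and 6.2% lower for H2009, 8.54% and 6.33% for H441, and 4.35% and 5.14% for H460. Of 28 lists, the hepatocyte-type secreted proteins held the highest share of genes called higher in A549, 8 of 29 tested (27.6%, against 2.15% of all genes), with none lower. Over the whole list the median difference from the mean of the other lines was 0.13, against 0.02 over all genes, so the separation lay in the called members. Fibrinogen, the clotting protein of plasma, is made of 3 chains by the liver. FGB, its beta chain, had 8.72, 8.94 and 9.27 on the A549 arrays, against 3.16, 2.93 and 2.97 in H2009, 3.22, 3.65 and 3.50 in H441 and 3.14, 3.33 and 3.01 in H460, and was 45.9-fold above H441. FGA, the alpha chain, had 7.22, 7.36 and 7.36 on the A549 arrays, against 2.97 to 3.35 on the 9 others. FGG, the gamma chain, had 4.14, 5.59 and 5.78 in A549, with replicate 1 below the other arrays of its group, and 2.69 to 3.11 on the 9 others. FGL1, a fibrinogen-like protein of liver, was higher by 3.28 than in the closest line, APOH, an apolipoprotein, by 2.59, and SERPINA3, an acute phase protease inhibitor, by 2.24. ITIH2 and A1CF were the other called members, with means of 4.97 and 5.09 in A549 and at most 3.16 and 3.90 in the other lines. The list holds A1CF although it encodes an RNA-binding protein and not a secreted one. Of 15 hepatic and endodermal transcription factor genes tested, 2 were higher, NR5A2 by 2.64 and FOXA2 by 1.65, and none was lower. Of 48 complement and coagulation genes, the complement gene C5 (2.61) and the thrombin receptor gene F2R (2.47) were higher and F3, tissue factor, was lower by 1.45. These are shares of 4.17% higher and 2.08% lower, against 2.15% and 1.7% of all genes. Against single lines 4 of the 48 were higher and 4 lower than in H2009, 4 and 9 than in H441, and 3 and 6 than in H460.

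Of 18 mucin and trefoil genes, 3 were higher (16.7%, against 2.15% of all genes) and none was lower than in all 3 lines, with a median difference from the mean of 0.04, against 0.02 over all genes. In the comparison with H441 3 genes of the list were lower, and in that with H460 2, against 6.33% and 5.14% of all genes. SPDEF, a transcription factor of goblet cells, had 7.08, 7.02 and 7.37 on the A549 arrays, against 4.45 to 5.02 on the 9 others. The airway mucin gene MUC5B and AGR2, an endoplasmic reticulum protein of mucous cells, were higher by 1.37 and 1.14 than in the closest line, which was H441 for both. With A549 replicate 3 left out the AGR2 difference was 0.90 and no longer called. Of 28 alveolar and airway genes, ABCA3, the lipid transporter of surfactant granules, was higher by 1.63 and the copper oxidase gene CP by 1.32, and no gene of the list was lower than in all 3 lines. Of 11 CEACAM genes, a family picked after the values were seen, CEACAM6 and CEACAM5 were called. CEACAM5 had 4.08, 6.46 and 7.09 on the A549 arrays, which spread more than in any other line, and 2.92 to 3.45 on the others, and its difference from the closest line, 2.54, was 3.44 without replicate 1 and 1.93 without replicate 3.

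In the list of receptor tyrosine kinases and ligands 8 of 32 genes were higher (25%, against 2.15% of all genes) and none was lower. The list does not hold EPGN, a ligand that was lower as given above. The list's median difference from the mean was 0.27. The fibroblast growth factor receptor genes FGFR1, FGFR4 and FGFR2 were higher than in the closest line by 2.18, 1.90 and 1.39. FGFR1 had 9.02, 8.52 and 8.55 on the A549 arrays, against 4.96 to 6.54 on the 9 others. IGFBP3, which binds insulin-like growth factors, was higher by 2.09 and EREG, an EGF receptor ligand, by 1.43. The other called members were EGFR, which averaged 8.39 in A549 against 7.06 in H2009, 4.87 in H441 and 5.09 in H460, NRG1 (7.30 against 5.59, 5.93 and 5.80 in the same order) and PDGFA (7.42 against 6.12, 6.19 and 6.38). Single lines differed in the other direction in part, since 5 genes of the list were lower in A549 than in H441 and 3 lower than in H460. Over all genes 6.33% were lower than in H441 and 5.14% than in H460. Among 21 genes that report ERK activity, DUSP4, EPHA4 and MYEOV were higher (14.3%, against 2.15% of all genes) and ETV1 was lower (4.76%, against 1.7%). DUSP4 was at 0.95 and not called under quantile normalization. MYEOV was separated most, by 2.23, and ETV1, at -1.11, was at -0.99 and not called with A549 replicate 1 left out. DUSP6, a phosphatase of ERK and part of the same list, averaged 7.24 ± 0.02 in A549, 7.65 ± 0.06 in H2009, 8.06 ± 0.22 in H441 and 5.10 ± 0.33 in H460.

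**Figure D3:**
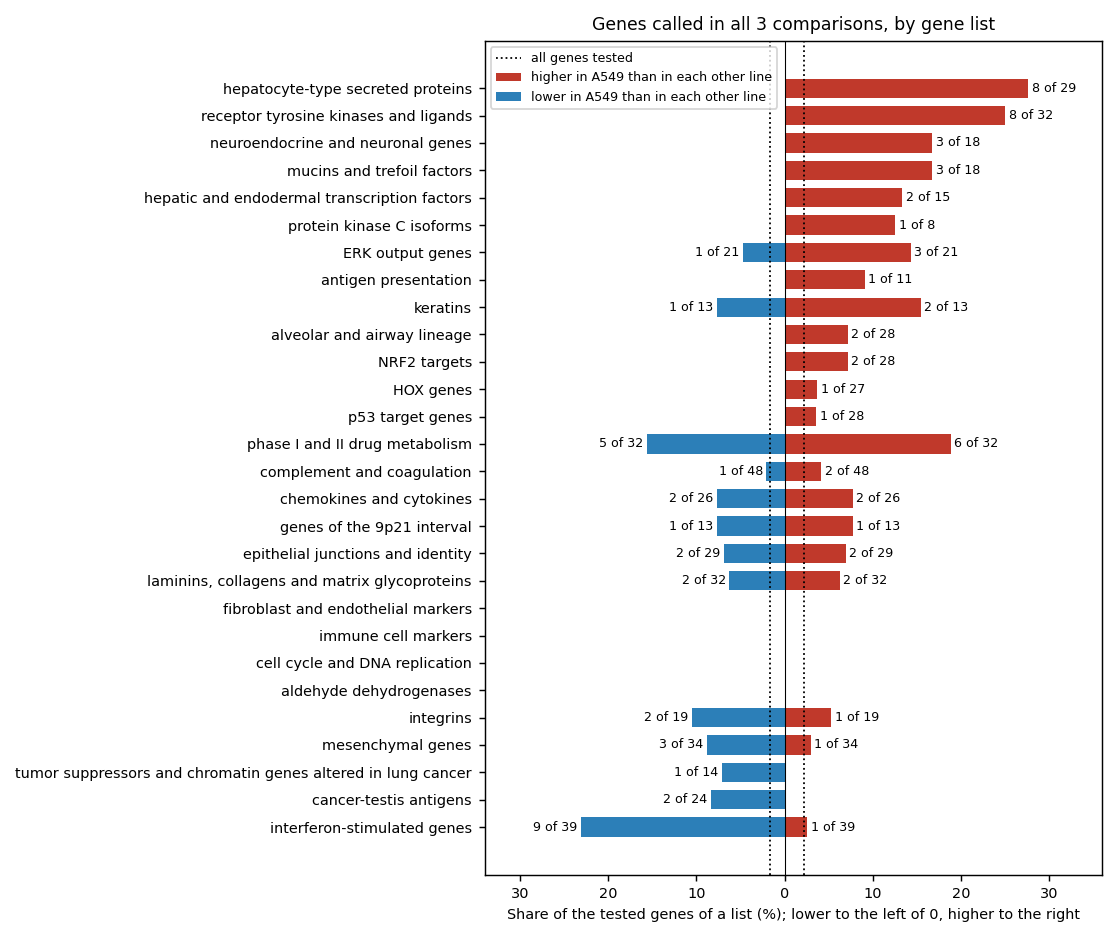
Share (%) of the tested genes of each list that were called in A549 against all 3 other lines on the control arrays, with lower genes to the left of 0 and higher genes to the right and the number of genes beside each bar. Dotted lines mark the shares over all genes, 1.7% lower and 2.15% higher.

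Interferon-stimulated genes were the list with the highest share of lower calls, 9 of 39 (23.1%, against 1.7% of all genes), with 1 higher. Interferons act on cells through complexes that contain STAT proteins, and such a complex binds the interferon-stimulated response element in promoters of these genes. The median difference of the list from the mean of the other lines was -0.96, against 0.02 over all genes. Against single lines 17 of the 39 were lower than in H2009, 20 than in H441 and 15 than in H460, and 2 were higher in each of these comparisons. Over all genes 6.2%, 6.33% and 5.14% were lower in the same order, and 4.85%, 8.54% and 4.35% were higher. No interferon was given in this study, so the comparison is one of levels in unstimulated culture.

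The promoters of these genes were searched for the element. The motif GAAANNGAAA, searched on both strands, was present in 3.57% of 35116 promoter windows of RefSeq (GRCh38.p14, 250 bases before to 50 bases after each start). It was present in 8 of the 9 lower genes and in 24 of the 32 genes of the list with a window, so in this respect the called genes stand close to their own list. A match is a description of letters, not a measured site. The stretch around the match nearest to each start, ahead of the start, is shown for 7 of the lower genes because it is the sequence that names the list, with the motif or its reverse complement in capitals, 5′ to 3′ on the strand of the gene.
BST2 (chr19:17405741-17405770, minus strand): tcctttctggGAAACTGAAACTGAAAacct
IFITM3 (chr11:320893-320922, minus strand): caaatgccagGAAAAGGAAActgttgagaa
IFI44L (chr1:78620365-78620394, plus strand): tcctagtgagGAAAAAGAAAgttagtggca
IFI44 (chr1:78649761-78649790, plus strand): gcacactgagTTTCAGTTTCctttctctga
SAMD9 (chr7:93118096-93118125, minus strand): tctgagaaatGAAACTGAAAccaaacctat
IFITM1 (chr11:313990-314019, plus strand): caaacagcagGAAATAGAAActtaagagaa
IFIT3 (chr10:89332468-89332497, plus strand): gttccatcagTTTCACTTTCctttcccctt

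BST2, or tetherin, which holds budding viruses at the cell surface and whose stretch holds overlapping copies of the motif, had 4.10, 3.91 and 4.36 on the A549 arrays, against 8.34, 8.23 and 8.32 in H2009, 8.17, 8.05 and 7.88 in H441 and 7.86, 7.93 and 7.88 in H460. It was 13.6-fold lower than in H460, the closest line, with an SE of the log2 difference of 0.11 (adjusted p = 4.87e-12 by limma). IFITM3, which blocks the entry of viruses from endosomes, had 5.26, 5.35 and 5.05 on the A549 arrays, against 9.28, 8.63 and 8.96 in H2009, 10.35, 9.91 and 10.01 in H441 and 10.04, 10.27 and 10.07 in H460 and was 13.4-fold lower than in H2009. IFI44L and its neighbor IFI44 were lower by 2.78 and 2.53 than in the closest line, and PSMB8, a subunit of the immunoproteasome, by 2.05. In these 5 genes all 3 A549 arrays lay below every other array. The remaining lower members were SAMD9, IFITM1, SAMD9L and IFIT3, with A549 means of 4.62, 4.64, 3.93 and 3.76 and differences from the closest line of -2.02, -1.28, -1.14 and -1.10. OAS1, the 2′-5′ oligoadenylate synthetase that activates RNase L, went the other way. It had 10.22, 9.85 and 9.98 on the A549 arrays, against 6.27, 6.30 and 6.18 in H2009, 8.07, 8.18 and 7.82 in H441 and 8.45, 8.38 and 8.42 in H460, higher by 1.60 than in H460. Its relatives OAS2 and OAS3 were not called against all 3 lines.

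**Figure D4:**
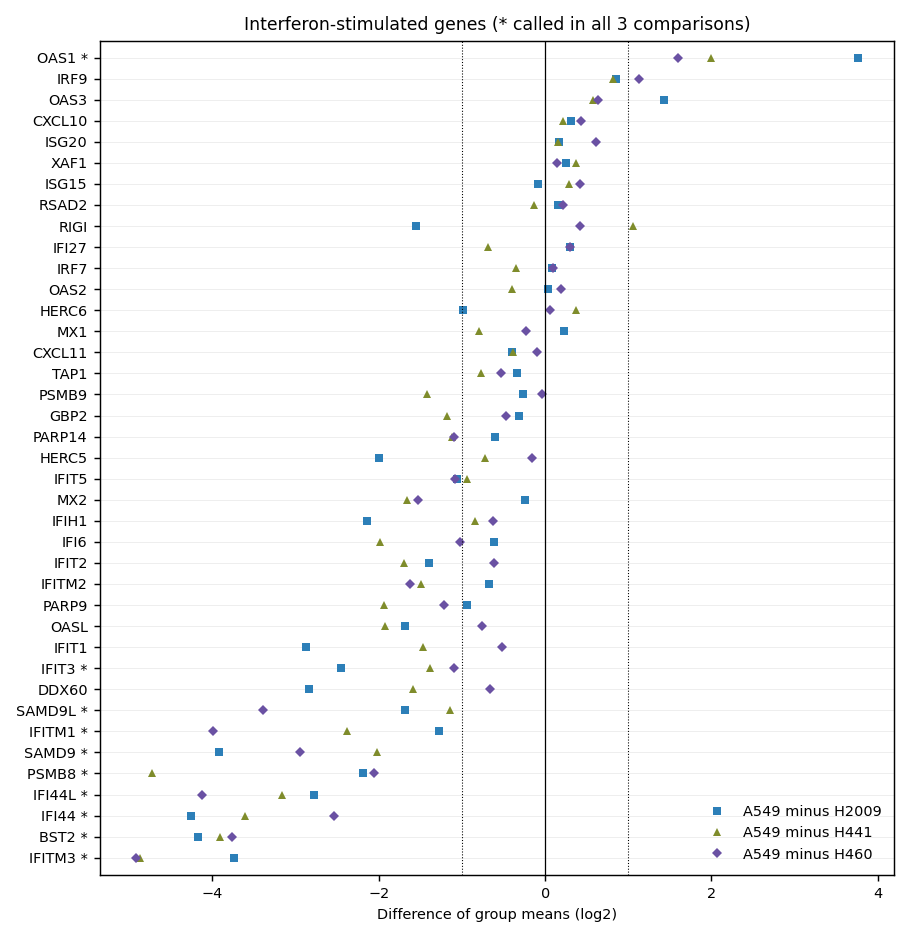
Difference between the A549 mean and the mean of each other line (log2) for the 39 interferon-stimulated genes tested, in the order of the difference from the mean of the other lines, with 0 and the 2-fold thresholds marked. The 9 genes called lower lie left of -1 in all 3 comparisons, and OAS1 lies right of 1 in all 3.

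Detoxification genes were called in both directions. Of 32 genes of phase I and II drug metabolism, 6 were higher (18.8%, against 2.15% of all genes) and 5 lower (15.6%, against 1.7%). The higher members were cytochromes P450 and a glucuronosyltransferase: CYP24A1 as above, CYP2S1 (3.02), CYP4F3 (1.96), CYP3A5 (1.39), CYP4F12, which averaged 5.23 in A549 and at most 3.95 in another line, and UGT2B7 (1.61). The lower members were mostly transferases and hydrolases. The glutathione S-transferase gene GSTM1 had 6.04, 4.88 and 5.47 on the A549 arrays, against 8.50 to 10.64 on the 9 others, GSTT1 had 4.26, 4.64 and 4.51 on the A549 arrays, against 7.61 to 8.62 on the 9 others, and GSTM3 had 3.67, 3.12 and 3.59 on the A549 arrays, against 7.12 to 8.38 on the 9 others. GSTM1 and GSTT1 are known to be deleted in part of the population, and GSTM1 shares sequence with its close relatives, so its value may include their RNA. CES1, a carboxylesterase of liver, had 6.80, 6.35 and 6.28 on the A549 arrays, against 9.97 to 12.65 on the 9 others, and DPYD, which degrades pyrimidines, was lower by 1.70 than in the closest line.

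Of 28 NRF2 targets tested, GPX2 and AKR1B10 were higher in A549 than in each other line (7.14%, against 2.15% of all genes) and none was lower. Under quantile normalization of the control arrays AKR1B10 was at 0.97 and no longer called. In the comparison with H2009 10 of the 28 were higher and none was lower, while against H441 3 were higher and 2 lower and against H460 3 were higher and 3 lower. Over all genes the shares were 4.85% higher and 6.2% lower, 8.54% and 6.33%, and 4.35% and 5.14%, in the same order. The median level of the list was 10.7 in A549, 9.83 in H2009, 10.5 in H441 and 10.7 in H460. AKR1B10, an aldo-keto reductase, showed the pattern within 1 gene, with 11.75, 11.64 and 11.77 on the A549 arrays, against 6.42, 5.78 and 5.64 in H2009, 10.55, 10.50 and 10.50 in H441 and 9.79, 9.93 and 9.86 in H460. NQO1, a quinone reductase, averaged 12.30 ± 0.02 in A549, 11.13 ± 0.08 in H2009, 11.73 ± 0.09 in H441 and 11.91 ± 0.03 in H460. The promoter of GPX2 holds the antioxidant response element TGACNNNGC that NRF2 binds, in reverse and 122 bases before the start, as do 13.3% of the 35116 windows and 7 of the 21 NRF2 targets with a window.
GPX2 (chr14:64942848-64942877, minus strand): acctgtttttGCTAAGTCAtcctggggatg
KEAP1 averaged 8.15 ± 0.05 in A549 and 8.12 ± 0.08, 8.70 ± 0.23 and 8.59 ± 0.06 in H2009, H441 and H460. Of 19 aldehyde dehydrogenase genes none was called against all 3 lines. ALDH1A1, which makes retinoic acid, was high in A549 at 12.14 ± 0.01, against 8.48 ± 0.06 in H2009, 9.80 ± 0.04 in H460 and 11.58 ± 0.08 in H441, which was closer than 2-fold.

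Epithelial genes divided by the line A549 was set against. Of 29 genes of epithelial junctions and identity, CLDN1 and ELF3 were higher and CLDN7 and CLDN4 lower than in all 3 lines. Against H2009 19 of the 29 were lower and 2 higher, against H441 3 were lower and 7 higher, and against H460 2 were lower and 10 higher. The shares over all genes were 6.2% lower and 4.85% higher, 6.33% and 8.54%, and 5.14% and 4.35%, in the same order. The adhesion gene CDH1 had 8.10, 8.92 and 9.16 on the A549 arrays, against 11.19, 11.34 and 11.16 in H2009, 6.59, 6.46 and 6.17 in H441 and 5.54, 5.55 and 5.71 in H460, so that A549 lay between H2009 and the other pair. EPCAM averaged 4.71 ± 0.17 in A549, 11.20 ± 0.12 in H2009, 5.89 ± 0.24 in H441 and 5.45 ± 0.22 in H460. The tight junction gene CLDN7 had 4.71, 5.34 and 5.31 on the A549 arrays, against 10.55, 10.52 and 10.42 in H2009, 7.96, 7.66 and 7.64 in H441 and 7.79, 7.58 and 7.58 in H460, and was lower than in H460, the closest line, by 2.53. CLDN1, of the same family, was higher by 1.39 than in H460, and ELF3, an epithelial transcription factor, by 2.14 than in H2009.

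Of 34 mesenchymal genes, 1 was higher (2.94%, against 2.15% of all genes) and 3 were lower (8.82%, against 1.7%), with a median difference of 0.01. CDH2, or N-cadherin, had 6.48, 6.97 and 7.0 on the A549 arrays, against 9.502, 9.47 and 9.43 in H2009, 9.63, 9.75 and 9.56 in H441 and 9.59, 9.61 and 9.57 in H460. The crosslinking enzyme gene LOX and the fibrillin gene FBN1 were lower by 2.17 and 1.38, and DKK1, a secreted WNT inhibitor, was higher by 2.20. VIM, which encodes vimentin, averaged 11.26 ± 0.10 in A549 and 10.77 to 10.82 in the other lines. Of 13 keratin genes KRT20 and KRT4 were higher and KRT19 was lower, by 1.46 against H460, the closest line. Among 19 integrin genes ITGB4 was higher by 1.21 and ITGA4 and ITGA5 were lower by 1.99 and 1.04, of which ITGA5 was at -0.94 and -0.97 and not called with A549 replicate 2 or 3 left out. ITGAV, the partner of ITGB3 in integrin αVβ3, averaged 9.37 ± 0.04 in A549 and 9.17 ± 0.10, 8.54 ± 0.05 and 7.91 ± 0.15 in H2009, H441 and H460, and neither gene was called against all 3 lines. Of 32 genes of laminins, collagens and matrix glycoproteins, THBS1 (2.15) and FBLN1 (1.09) were higher and LAMA1 (lower by 1.37) and LAMB3 (1.13) were lower.

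Cytokine genes were called both ways, with 2 of 26 higher (7.69%, against 2.15% of all genes) and 2 lower (7.69%, against 1.7%). CCL20, a chemokine of mucosa, had 6.30, 6.17 and 6.43 on the A549 arrays, against 3.18 to 4.17 on the 9 others. IL1A, which encodes interleukin 1α, had 3.63, 3.59 and 3.80 on the A549 arrays, against 6.96 to 9.03 on the 9 others, and IL1B was lower by 1.24 than in H460. CXCL8 was high in 3 lines, at 8.92 ± 0.32 in A549, 8.36 ± 0.12 in H2009 and 9.63 ± 0.36 in H441, against 6.97 ± 0.11 in H460. Of 24 cancer-testis antigen genes, MAGEB2 and MAGEA1 were lower and none was higher. MAGEA1 had 4.67, 4.57 and 4.41 on the A549 arrays, against 6.86 to 8.72 on the 9 others. Of 18 neuroendocrine and neuronal genes 3 were higher, SNAP25 by 1.33, DDC by 1.71 and CHGB by 1.47, and none was lower. Of 8 protein kinase C genes PRKCQ, which encodes the theta isoform, was higher by 2.08 and none was lower.

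At the chromosome 9p21 interval, 1 of 13 genes was lower in A549 than in each other line. This was MTAP, an enzyme of methionine salvage next to CDKN2A, with 3.85, 4.71 and 4.02 on the A549 arrays, against 7.77, 7.47 and 7.55 in H2009, 8.29, 8.10 and 8.03 in H441 and 7.75, 7.79 and 7.85 in H460. CDKN2A averaged 4.29 ± 0.27 in A549, 8.61 ± 0.17 in H2009, 4.93 ± 0.24 in H441 and 4.16 ± 0.09 in H460, so only H2009 stood high, and CDKN2B averaged 4.95 ± 0.26 in A549 and 4.67 ± 0.08 in H460. MLLT3, further from CDKN2A, was higher by 1.42. Of 14 tumor suppressor and chromatin genes, SMARCA4 was the 1 called. STK11 averaged 6.43 ± 0.05 in A549, 6.62 ± 0.03 in H2009, 8.04 ± 0.26 in H441 and 6.74 ± 0.09 in H460. Among 28 p53 target genes TNFRSF10B, a death receptor, was higher by 1.12 (0.96 and not called under quantile normalization), and HOXC9 (1.03) and HLA-DMB (1.19) were the only genes called among 27 HOX and 11 antigen presentation genes. These are shares of 3.57%, 3.7% and 9.09% higher, against 2.15% of all genes. HOXC9 was not called with any 1 of 4 arrays left out, at 0.85 to 0.98. In the lists for cell cycle and DNA replication (39 genes), immune cells (14) and fibroblasts and endothelium (13) no gene was called in either direction against all 3 lines. The median level of the immune list was 4.01 in A549 and 3.78 to 3.96 in the other lines, and that of the fibroblast and endothelial list was 3.88 in A549 and 3.71 to 3.77.

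Other gene families were picked after their values were seen and are described without a test. Zinc finger genes named ZNF, most of which encode repressors with a KRAB domain, had 28 of 494 genes lower in A549 (5.67%, against 1.7% of all genes) and 2 higher (0.405%, against 2.15%). Of the 28 lower genes 24 lie on chromosome 19, which carries 237 of the 494. ZNF468 had 3.18, 2.71 and 2.70 on the A549 arrays, against 5.54 to 7.97 on the 9 others, ZNF808 had 3.52, 3.64 and 3.94 on the A549 arrays, against 6.57 to 8.12 on the 9 others, and ZNF717 was lower by 3.04 and ZNF83 by 2.90 than in the closest line. The median difference over the family was -0.15. These genes resemble each other in sequence, so probes of 1 member may also measure another. Among 63 histone genes H1-5, H2BC7, H2AC8 and H2BC9 were lower (6.35%, against 1.7% of all genes) and H2AC4 was higher (1.59%, against 2.15%), with a median difference of 0.01. Among 64 cadherin and protocadherin genes 2 were higher (3.12%, against 2.15% of all genes) and 5 lower (7.81%, against 1.7%). CDH17, the liver-intestine cadherin, had 6.76, 6.57 and 6.84 on the A549 arrays, against 2.91 to 3.29 on the 9 others and PCDH9 was higher by 1.28, while CDH2, CDH7, CDH10, CDH19 and PCDHGB4 were lower. CDH10 and CDH19 were lower by 3.21 and 3.12.

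Called genes also lay next to each other. Runs of at least 3 neighbouring genes called in 1 direction were found 6 times among the higher genes and 3 times among the lower ones, with neighbours taken from RefSeq (GRCh38.p14). The fibrinogen cluster FGB, FGA and FGG on chromosome 4 was one of them, and its 3 genes are similar in function. The others held PFKFB3, PRKCQ and SFMBT2 on chromosome 10, IGFBP1, IGFBP3 and TNS3 and also PON3, PON2, ASB4 and PDK4 on chromosome 7, and SLC7A2, PDGFRL, MTUS1 and FGL1 and also TCIM, ZMAT4 and SFRP1 on chromosome 8. The genes of the PFKFB3 run were higher by 2.495, 2.08 and 3.05 than in the closest line. Lower runs were C1orf21, EDEM3 and NIBAN1 on chromosome 1, MRPS30, EMB and PARP8 on chromosome 5, and CDH7, CDH19 and DSEL on chromosome 18. With 1 array left out ZMAT4 was at 0.88, IGFBP1 at 0.96 and EDEM3 at -0.88, below the 2-fold threshold. By chromosome the share of tested genes called higher was 5.32% on chromosome 8, 3.98% on chromosome 10 and 3.55% on chromosome 20, and the share called lower was 3.7% on chromosome 5, 3.56% on chromosome 3 and 3.41% on chromosome 18, against 2.15% and 1.7% over all genes. With H441 set aside the higher shares on chromosomes 8, 10 and 20 were 5.79%, 4.86% and 3.55% and the lower shares on chromosomes 5, 3 and 18 were 5.75%, 4.55% and 4.17%, and with H2009 set aside they were 7.51%, 5.3% and 3.55% and 5.11%, 6.92% and 4.17%. Over all genes the shares were then 2.58% higher and 2.33% lower without H441, and 3.25% and 2.89% without H2009. Without H2009 the share on chromosome 20 was thus close to that over all genes. Copy number was not measured.

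With H441 or H2009 set aside, fewer lines have to be passed, so lists and families can only gain calls. The shares over all genes also rose, to 2.58% higher and 2.33% lower without H441 and to 3.25% and 2.89% without H2009. The counts below are to be read against these shares and not against those of the main comparison. Hepatocyte-type secreted proteins had 8 of 29 genes higher without H441 and 8 without H2009, with none and 1 lower. Receptor tyrosine kinases and ligands had 8 of 32 higher and none lower without H441, and 10 higher and 3 lower without H2009. Interferon-stimulated genes had 10 of 39 lower without H441 and 14 without H2009, and 1 higher in both cases. Drug metabolism genes had 8 of 32 higher and 5 lower without H441, and 7 higher and 8 lower without H2009. Of 29 epithelial genes 2 were higher and 2 lower without H441, and 7 were higher and 2 lower without H2009. Of 32 laminin, collagen and matrix genes 2 were higher and 2 lower without H441, and 3 were higher and 8 lower without H2009. Zinc finger genes had 47 of 494 lower without H441 and 29 without H2009, with 2 and 6 higher.

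Some genes set A549 apart from a single line. Against H2009 alone 271 genes were called higher and 596 lower. The 4 lower ones with the largest difference included the noncoding RNA gene UCA1, at 4.21 ± 0.16 in A549 and 10.60 ± 0.16 in H2009, and the P-cadherin gene CDH3, at 4.06 ± 0.12 and 9.70 ± 0.09 in the same order, besides ZNF667-AS1 and H1-1, and the largest of the higher ones were ALDH3A1 and SERPINB9, an inhibitor of granzyme B. Against H441 alone 810 were higher and 559 lower. The higher ones were led by small nucleolar RNAs, such as SNORA71D at 11.25 ± 0.06 in A549 and 7.08 ± 0.30 in H441, and among the lower ones PDCD4, an inhibitor of translation, was at 6.35 ± 0.18 in A549 and 9.16 ± 0.02 in H441. Against H460 alone 114 were higher and 290 lower. DUSP6, CXCL8, NTN4 and the fibronectin gene FN1 led the higher ones. FN1 had 8.80, 7.22 and 7.31 on the A549 arrays and 5.82, 5.80 and 6.02 in H460, and replicate 1 was above the other A549 arrays. SERPINB3, a squamous cell serpin, led the lower ones at 3.55 ± 0.32 in A549 and 7.18 ± 0.07 in H460.

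Arrays of the same lines with the PKCδ shRNA δ193 gave a second set of 12 arrays that the calls had not used, although the lines are the same. On these arrays 426 genes were higher in A549 than in each other line (2.31%) and 342 were lower (1.86%). Of the 396 genes called higher on control arrays 309 (78.0%) were called higher there too, and of the 313 lower genes 254 (81.2%) were called lower. With H441 set aside 364 of 475 higher genes (76.6%) and 344 of 429 lower genes (80.2%) were called the same way on δ193 arrays, and with H2009 set aside 460 of 599 (76.8%) and 368 of 533 (69.0%). The signs of all 3 differences were the same for 394 of the 396 and 312 of the 313. These genes were chosen for differences of at least 2-fold between the same lines, so the shared signs are not independent support. A difference between the δ193 and the δscr contrast passed the test for 130 of the higher and 82 of the lower genes (adjusted p under 0.05, limma), against 1086 of all genes (5.9%). The called genes were chosen for a large δscr contrast, so nothing is read from the direction of these changes as a whole. CES1 moved most among the named genes. With δ193 it had 10.36, 10.73 and 10.95 in A549, against 6.47 ± 0.28 with δscr, and the difference from the mean of the other lines was -1.11 with δ193 and -5.08 with δscr (adjusted p of the change 1.29e-14). CEACAM5 and MUC5B were further above the other lines with δ193, and CCL2 was less far above them, at 3.94 with δ193 and 5.76 with δscr.

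**Figure D5:**
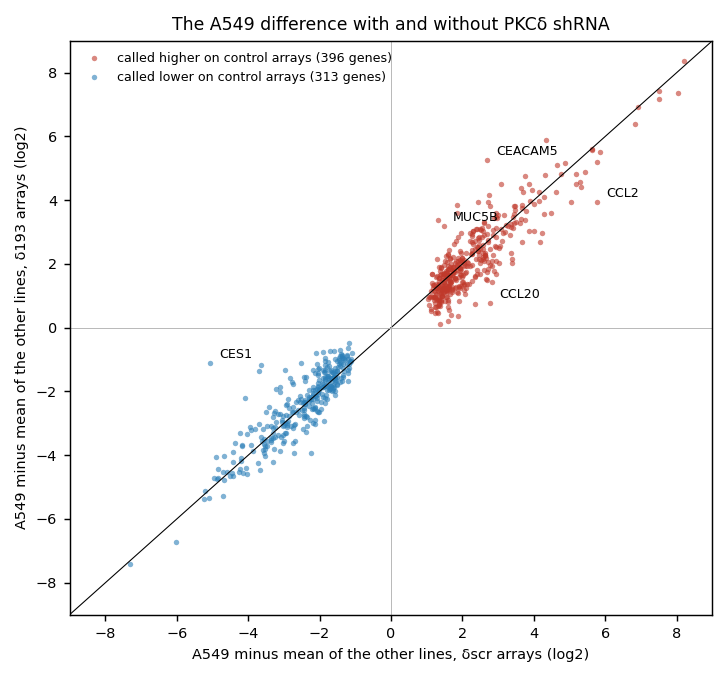
Difference between A549 and the mean of the 3 other lines (log2) for the 709 genes called on control arrays, on δscr arrays (horizontal axis) and on δ193 arrays (vertical axis), with the line of equality. Most points lie near the line, and CES1 lies at -5.08 with δscr and -1.11 with δ193.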

How the data were processed

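Total RNA of 4 lung cancer lines, 3 biological replicates per group, was measured on Affymetrix human gene arrays. The authors deposited log2 values that they made by RMA in Affymetrix Power Tools. RMA corrects background, gives all arrays the same distribution and summarizes the probes of a transcript cluster. Software versions and a genome build for the probes were not given in the sources used here. Sequencing depth does not apply, and 3 arrays per group limit the precision.

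Of 33252 clusters, 19460 had 1 gene symbol in the annotation of the array, of which 19429 were updated through the Entrez ID. The 1754 clusters with several symbols and the 12038 with none were left out. The cluster of highest mean was taken where a gene had several, as 769 did, which gave 18417 genes. The 3 clusters of PSMB8 hold identical values.

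limma 3.58.1 in R 4.3.3 was fitted to the 12 control arrays with 1 coefficient per line and no covariate. A549 was compared with each other line and with their mean, with p adjusted by Benjamini-Hochberg over all genes in each comparison. The δ193 arrays were fitted in the same way, and the change of the A549 contrast between δ193 and δscr was tested on all 24 arrays. The scripts were tested on simulated data. Student's test and the lower fold threshold that the study used within a line were run as alternatives, as were a 4-fold threshold, other fits, normalizations and gene summaries, a filter on low values, a replicate block and each array left out. Setting aside 1 line, for the total counts, lists, families, chromosomes and δ193 arrays, was added after the values were seen.

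The members, which the labels fix, and the 28 gene lists were chosen with earlier results of these data known. The rule for named genes took PRKCD, the 25 higher and 20 lower genes with the largest difference from the closest line, up to 5 called members of each list in each direction (or, with none, the 3 furthest from the mean of the other lines), the 4 genes with the largest difference each way called against 1 line only, and runs of at least 3 neighbouring genes. Other genes named, among them cell type markers, the genes next to the threshold, further members of lists and the zinc finger, histone, CEACAM and cadherin families, were picked after their values were seen. Some genes that the rule selects are not described. Promoter sequences are from RefSeq on GRCh38.p14.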

Additional observations from a re-analysis of the deposited data

Results flagged for a closer look

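For 15 of the 149 named genes called against all 3 lines on control arrays, the A549 difference changed by at least 2-fold between δ193 and δscr cells. The difference is from the mean of the other lines, and its change was tested as the interaction of line and shRNA (limma, adjusted p under 0.05). Over all genes 1086 (5.9%) passed this test, with no condition on fold. The 15 genes were chosen for a large δscr contrast, which is part of the change tested, so nothing is read from its direction. Named genes not called against all 3 lines are left out of the 15. ALDH1A1 (1.355) and CXCL8 (-1.758) are among those left out that passed the same test. A549 stood further above the other lines with δ193 than with δscr for CEACAM5 (a change of 2.562 on the log2 scale), MUC5B (1.685), KRT20 (1.553), APOH (1.418), C5 (1.228) and IGFBP3 (1.042). A549 stood closer to them with δ193 for the chemokine genes CCL20 (-2.007) and CCL2 (-1.823) and for SERPINA3 (-1.586), MMP7 (-1.471), FGFR1 (-1.264), DCDC2 (-1.26), NR5A2 (-1.082) and SLFN11 (-1.07). CES1, lower in A549 than in the other lines with δscr, changed by 3.965 and stood closer to them with δ193. CEACAM5 and KRT20 were also the genes whose A549 control arrays lay furthest apart among these, with 4.08, 6.46 and 7.09 for CEACAM5 and 7.01, 8.63 and 9.19 for KRT20. Their part in the change was not tested.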

How the results depend on the processing

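The counts depended mainly on the fold threshold. At the lower threshold of the methods, 1504 genes were higher and 1338 lower in A549 than in each other line, and 6899, 7687, 8911 and 7219 genes were called against the mean, H2009, H441 and H460. At a fold of 4 the counts were 126 and 113, and 417, 572, 607 and 499 in the same order. With only genes above the median mean, which tests fewer genes, 181 were higher and 241 lower (42.9% of the calls higher, against 55.9%), and 1003, 1269 and 1140 were called against the mean, H2009 and H460. With the H2009 arrays set aside 599 genes were higher and 533 lower than in both remaining lines, with H460 set aside 526 and 374, and with H441 set aside 475 and 429, since fewer lines have to be passed. With 1 array left out the counts were 388 to 417 higher and 308 to 321 lower, and 1562 to 1615, 2006 to 2081, 2683 to 2797 and 1716 to 1783 against the mean, H2009, H441 and H460. The methods' t-test gave 393 and 312 genes unadjusted and 386 and 309 after Benjamini-Hochberg.

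The replicate numbers do not pair the samples, since deviations of same-numbered arrays correlated at -0.205 to 0.122 and 2 of 12 arrays correlated best with their own number, and the fit with the replicate block gave the same counts, 396 and 313, and changed no count of calls. Fits of single pairs of lines give no value for the mean. Of 149 named genes that were called, none was reversed under the alternatives run for single genes, which leave out the fold thresholds and the lines set aside, and 12 lost the call under at least 1 of these: AGR2, AKR1B10, CEACAM5, DUSP4, EDEM3, ETV1, HOXC9, IGFBP1, ITGA5, TNFRSF10B, ZMAT4 and ZNF518A, of which 8 did so with 1 array left out. CEACAM5 lost it only in the methods' t-test. The cause of these changes was not tested. No background level was measured, so folds against values at the lower end of the scale are uncertain.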

Other observations

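In some lists the counts of calls differed with the line set against A549, as they did over all genes. Over all genes 8.54% were higher and 6.33% lower than in H441, 4.85% and 6.2% than in H2009, and 4.35% and 5.14% than in H460. Of 39 cell cycle and DNA replication genes, 7 were higher in A549 than in H441 and none lower, 2 were lower and none higher than in H2009, and none was called against H460. GINS2, a subunit of a complex of the replicative helicase, averaged 10.42 ± 0.12 in A549, against 10.01 ± 0.03 in H2009, 7.44 ± 0.07 in H441 and 9.84 ± 0.10 in H460 (SD, n = 3 arrays each). Of 32 genes of laminins, collagens and matrix glycoproteins, 4 were higher and 3 lower in A549 than in H2009, 3 higher and 13 lower than in H441, and 4 higher and 10 lower than in H460. Whether these counts differ between lines was not tested.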
